A study of Mus musculus with 17 samples.

Results

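Rnase4 encodes a small secreted ribonuclease, and on these arrays it was represented by 2 probes, numbered 60 and 351 (Entrez gene 58809). It was 1 of 9030 genes with a symbol, and its probes were 2 of 12771 named probes among 20794 array rows. The gene was chosen on the fetal log2 ratios measured here, as the gene with the highest mean among the 4 named genes that passed as higher in mutant embryos, so those ratios are given as a description and were not used as a test of it. The values in adult animals and the difference between dyes had no part in that choice and were tested. The difference between the sexes of the embryos was tested too, but a large one would have widened the spread that the choice took into account. That test is therefore not independent of the choice.

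The study compared the liver RNA of mice lacking Afp with that of wild-type mice, each mutant animal beside a wild-type pool on a 2-colour cDNA array. The adult group was 6 mutant males aged 17 weeks, and their pool came from 6 wild-type males of that age. Of these adults, 5 were measured on a pair of arrays, with the mutant RNA in Cy5 on the first and in Cy3 on the other, and animal 5 had the Cy5 array only, which gave 11 arrays. The fetal group held 6 mutant embryos, 3 male and 3 female, with 1 array each and the mutant in Cy5. The embryos carry the label 7.5 E for fetal liver, which is kept here as a label. The same 4 pool animals are named on all fetal arrays, but its sex is labelled male on 2 arrays and female on the other 4, and the protocol text speaks of 6 control animals. The sources used here give neither the strain nor the way the knockout allele was made. No wild-type animal was measured alone, so the tests leave out the spread between wild-type animals, and the number of arrays limits the precision. In bulk liver, fewer cells of a type and less RNA per cell cannot be told apart.

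Each array gave 20078 to 20697 values, and the medians of the arrays lay between -0.11 and 0.09. A value is the log2 ratio of mutant over pool, so 1 means a doubling. Afp, the targeted gene and the main serum protein of fetal liver, read -8.40 ± 0.23 in the embryos (SD, n = 6, from -8.79 to -8.11), which matches their label. In adults, where the gene is normally nearly silent, it read -0.03 ± 0.19 (n = 6, from -0.19 to 0.34), which checks no label.

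The ribonuclease A superfamily consists of small, disulphide-bonded enzymes that cells secrete and that cut RNA. RNase 4 prefers to cut after uridine, is made in liver and is encoded beside angiogenin (Ang), a relative that promotes blood vessel growth. The Rnase4 and Ang transcripts share start regions and noncoding first exons, and the cytosolic inhibitor Rnh1 binds and blocks such enzymes. No probe carried the symbol Ang, so the partner of that shared start is not analysed here.

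RefSeq, on build GRCm38.p6, gives Rnase4 2 start regions on the plus strand of chromosome 14. They are shown because the first is letter for letter the window listed for Ang, while the second is listed for Rnase4 alone. The label of the second means only this listing, and whether Ang transcripts also start there was not looked at. The windows are chr14:51090827-51091126 and chr14:51095750-51096049, and their first bases lie 4923 bases apart. Capitals mark matches to CCAAT and, on the other strand, to GGGCGG.
start region shared with Ang: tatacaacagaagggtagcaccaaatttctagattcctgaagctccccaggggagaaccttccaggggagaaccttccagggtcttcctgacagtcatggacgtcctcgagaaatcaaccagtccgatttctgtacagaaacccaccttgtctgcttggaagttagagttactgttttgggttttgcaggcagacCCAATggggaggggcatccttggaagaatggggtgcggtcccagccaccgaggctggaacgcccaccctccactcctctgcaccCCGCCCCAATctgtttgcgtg
start region of Rnase4 alone: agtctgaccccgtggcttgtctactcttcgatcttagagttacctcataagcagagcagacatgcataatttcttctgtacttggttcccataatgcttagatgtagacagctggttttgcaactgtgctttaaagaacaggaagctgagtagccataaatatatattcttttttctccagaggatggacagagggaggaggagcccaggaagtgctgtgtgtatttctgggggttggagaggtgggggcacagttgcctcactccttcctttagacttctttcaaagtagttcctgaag

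The shared window held CCAAT at positions 196 and 285, counted from its first base, and GGGCGG on the other strand at position 280. The last of these overlapped the CCAAT at 285. Each window held 250 bases before the start and 50 after it, so the matches at 280 and 285 lay after the start. The window listed for Rnase4 alone held no match to either motif. Neither window held the TATA box motif TATAAA, the nuclear receptor motif AGGTCA or the hepatocyte nuclear factor motif GTTAAT. Each was searched on both strands, and the absence says only that these letters are not in these windows. G and C made up 54.7% of the shared window and 45.3% of the other. Among 32544 windows of this length, 37.4% held CCAAT and 35.9% held GGGCGG. The share was 13.6% for the TATA box motif, 16.2% for the nuclear receptor motif and 7.13% for the hepatocyte nuclear factor motif. Of 27025 genes in the table, 489 shared a window with another gene. A probe for the transcript does not tell from which start region it came.

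In mutant embryos Rnase4 lay above the wild-type pool on all arrays and by both probes. The mean of the probes was 1.42 in embryo 1, 0.99 in embryo 2, 1.18 in embryo 3, 0.81 in embryo 4, 0.89 in embryo 5 and 1.16 in embryo 6. The values lay within a narrow band and all were above 0, with embryo 1 highest and embryo 4 lowest. Their mean was 1.08 ± 0.22 (SD, n = 6), a level 2.11-fold that of the pool, from 1.76-fold to 2.68-fold between embryos.

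Probe 60 read 1.35, 1.09, 1.38, 1.01, 0.91 and 0.97 in embryos 1 to 6, with a mean of 1.12 ± 0.20 (n = 6). Probe 351 read 1.499, 0.89, 0.98, 0.62, 0.88 and 1.35, with a mean of 1.04 ± 0.33 (n = 6). The probes carry the same transcript accession, so they are repeat readings of an RNA and not replicates. Probe 60 was the higher of them in embryos 2, 3, 4 and 5, and probe 351 in embryos 1 and 6. Their means differed by 0.084, less than the median gap of 0.177 over the 1832 genes with 2 probes, and 24.5% of those genes had a smaller gap. Of these 1832 genes, Rnase4 alone had both probes at or above the mean of its own lower probe, 1.04. That limit came from the values that led to the choice, so Rnase4 met it by construction.

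**Figure D1:**
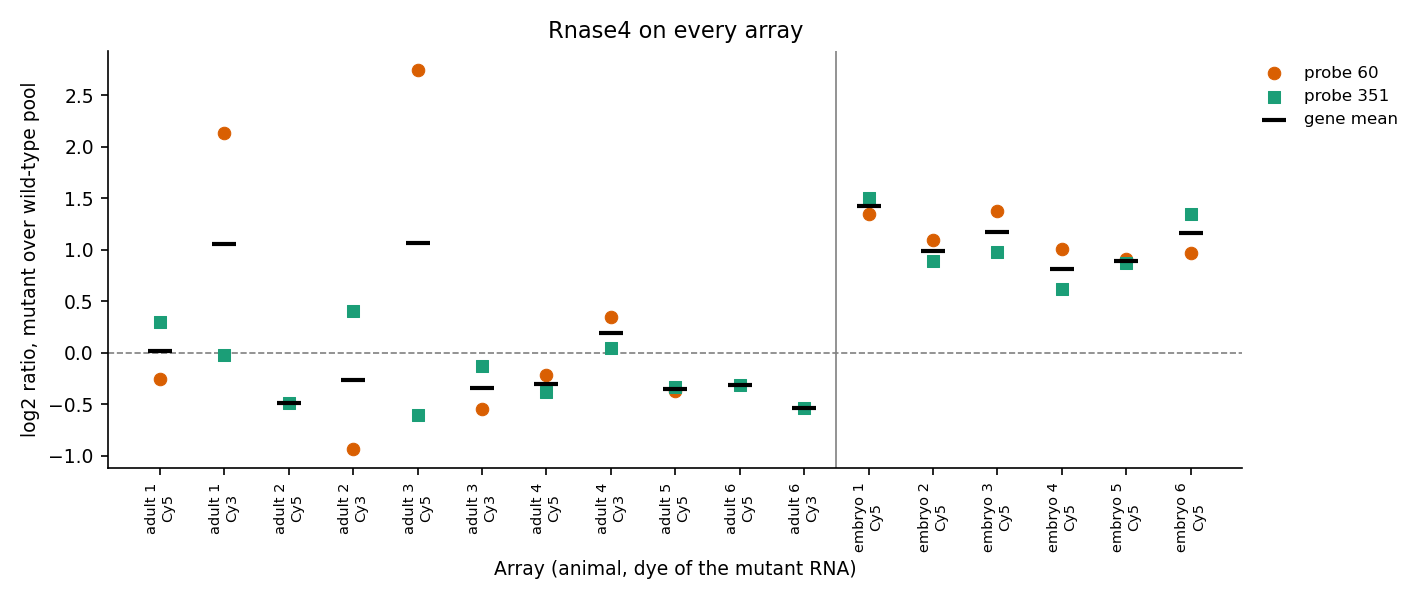
Rnase4 on each array, as the log2 ratio of mutant over wild-type pool (y axis), with adult arrays left and embryos right of the line. Circles are probe 60, squares probe 351 and bars the mean of those with a value; the embryos run from 0.81 to 1.42 by the mean, while adults scatter on both sides of 0 and probe 60 stands at 2.14 and 2.75 on 2 adult arrays.

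Set against all features of the same array, the gene ranked near the top in every embryo. A feature here is a named gene, as the mean of its probes, or a row without a name. The gene mean lay at percentile 99.6 in embryo 1, 99.4 in embryo 2, 99.2 in embryo 3, 99.3 in embryo 4, 99.0 in embryo 5 and 97.7 in embryo 6. Its rank from the top was between 70 and 386 among features, and between 33 and 143 among named genes. Probe 60 on its own ranked between 91 and 621 of all array rows with a value, and probe 351 between 75 and 372. Embryo 6, where the gene mean of 1.16 was near the group's average, gave its lowest percentile.

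Many features exceeded Rnase4 in the fetal mean without being steady. Of 17242 features with enough values, 188 had a higher mean, 82 of them named, and their SD between embryos had a median of 6.67 and was never below 0.32. Only 17 of the 188 were above 0 in all embryos with a value. The SD of Rnase4 was 0.223, beside a median of 0.249 over all features. The criterion behind the choice was a limma adjusted p under 0.05 for the fetal log2 ratio against 0, which 0.151% of features met (10 higher and 16 lower). Of the 10, 1 row without a gene name had a higher mean than Rnase4, at 1.38 ± 0.32. A named gene with a higher mean that met the criterion would have been chosen instead. The larger spread of the 82 named genes thus largely follows from the choice and does not set Rnase4 apart.

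Of the 10 features, 4 were named. Below Rnase4 came Afm (0.83 ± 0.16, n = 6), which encodes afamin, a serum protein of the albumin family, whose gene neighbours Afp. Ddx3x (0.72 ± 0.22), an RNA helicase gene on the X chromosome, and Sc5d (0.56 ± 0.06), a gene of cholesterol synthesis, followed. Ddx3x was the last named riser inside the criterion, with a limma adjusted p of 0.0467, and Scd1 (0.64 ± 0.19), a fatty acid desaturase gene, was the first outside it, at 0.0504. With 1 embryo left out, 2 to 5 features met the criterion. Rnase4 then missed it without embryo 1 (limma adjusted p 0.0522), embryo 2 (0.0825), embryo 3 (0.0728) or embryo 5 (0.0528), while its mean stayed between 1.01 and 1.13.

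**Figure D2:**
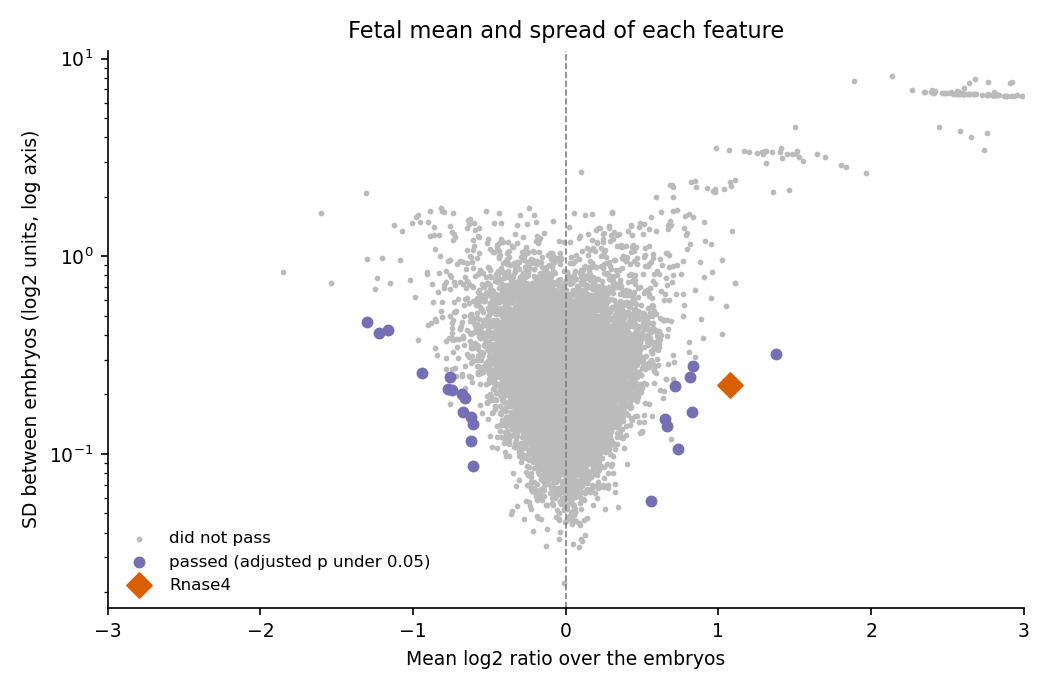
Mean fetal log2 ratio (x axis) and SD between embryos (y axis, log scale) of each feature with enough values; 80 features with a mean beyond 3 in size, 78 above 0 and 2 below, lie outside the plot. The diamond is Rnase4 (1.08, SD 0.223), and larger dots are the other features that met the criterion. Features further right lie higher up, with an SD of 0.32 or more, which for named genes largely follows from the choice of Rnase4.

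**Figure D3:**
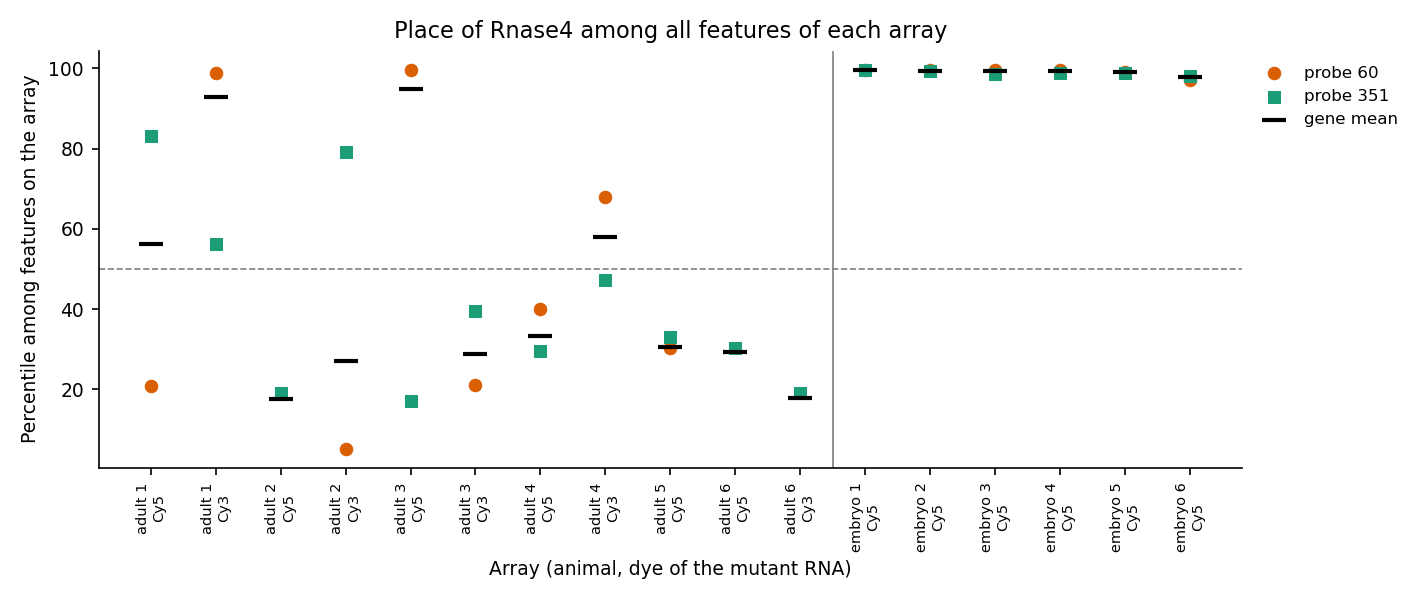
Percentile of Rnase4 (y axis) among all features or, for a probe, among all array rows with a value on each array, with adults left and embryos right of the line. In embryos the gene mean (bars) stays between 97.7 and 99.6, and in adults it spans 17.6 to 94.9.

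In adult mutants no change of Rnase4 was found. The animal means were 0.54 in animal 1, -0.37 in animal 2, 0.37 in animal 3, -0.05 in animal 4, -0.35 in animal 5 and -0.42 in animal 6. Animals 1 and 3 lay above 0 and the other 4 below. The mean was -0.05 ± 0.41 (SD, n = 6), with a 95% confidence interval of -0.42 to 0.32 and a limma adjusted p of 0.932. By limma 0 of 17039 features passed in adults (0%), and 1321 had an unadjusted p under 0.05.

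The high adult values came from probe 60. On the Cy5 arrays, those with mutant RNA in Cy5, it read -0.26 in animal 1, 2.75 in animal 3, -0.22 in animal 4 and -0.37 in animal 5. On the Cy3 arrays it read 2.14 in animal 1, -0.93 in animal 2, -0.55 in animal 3 and 0.34 in animal 4. It thus stood above 2 on 1 array of animal 1 and 1 of animal 3, and below 0 on the other array of each. Probe 60 had no value on the Cy5 array of animal 2 or on either array of animal 6, so the gene mean there is that of probe 351.

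Probe 351 stayed nearer to 0. On the Cy5 arrays it read 0.30, -0.48, -0.61, -0.38, -0.33 and -0.32 in animals 1 to 6. On the Cy3 arrays it read -0.02 in animal 1, 0.40 in animal 2, -0.13 in animal 3, 0.04 in animal 4 and -0.53 in animal 6. Its animal means averaged -0.20 ± 0.22 (n = 6, 1 above 0 and 5 below), with an interval of -0.45 to 0.06 and a limma adjusted p of 0.659. Those of probe 60 averaged 0.16 ± 0.86 (n = 5, limma adjusted p 0.883), so the probes differed in sign without either passing. The gap between the probes was 0.36 in adults, against a median of 0.206 over 2019 genes with 2 probes, and 75.3% of those had a smaller gap.

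By dye orientation the adult arrays gave like means. The gene mean on the Cy5 arrays was 0.02, -0.48, 1.07, -0.30, -0.35 and -0.32 in animals 1 to 6, and averaged -0.06 ± 0.58 (n = 6). On the Cy3 arrays the gene mean was 1.06 in animal 1, -0.26 in animal 2, -0.34 in animal 3, 0.19 in animal 4 and -0.53 in animal 6, and averaged 0.02 ± 0.64 (n = 5). A single array in each orientation was near 1, that of animal 3 in the first and that of animal 1 in the second. Percentiles ran from 17.6 to 94.9 in the first set (median 31.9) and from 18.0 to 92.8 in the second (median 28.7).

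The difference between the orientations within an animal, Cy5 minus Cy3, was -1.04 in animal 1, -0.22 in animal 2, 1.41 in animal 3, -0.49 in animal 4 and 0.22 in animal 6. It was below 0 in 3 animals and above in 2. In animal 2 the Cy5 value was that of probe 351 alone and the Cy3 value the mean of both probes. The -0.22 of that animal thus also holds a gap between probes, and in animal 6 both values were those of probe 351. The mean difference between the orientations was -0.02 ± 0.92 (n = 5), with an interval of -0.83 to 0.78 and a limma adjusted p of 0.967. Across the array 1491 of 16396 features passed for this difference (9.09%), 1396 of them higher on the Cy5 arrays. Probe 351 alone gave -0.25 ± 0.51 (n = 5, interval -0.85 to 0.35). Probe 60 alone gave 0.11 ± 2.90 (n = 3, from -2.39 to 3.29), and it had too few animals to be tested. The dye difference matters for the embryos, all of which had the mutant in Cy5. The fetal mean was 1.09 after the adult dye difference, divided by 2, had been subtracted, but the interval of that difference is wide.

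The labels do not state in which direction the Cy3 arrays were deposited, and the direction used here is a likely one. Paired arrays of an animal correlated at a median Spearman coefficient of -0.286 over all features (5 pairs, from -0.431 to -0.210). On the Cy3 arrays all 140 values beyond 10 in size were negative, and on the others all 445 were positive, so these arrays were taken as already given as mutant over pool. With the Cy3 arrays turned in sign, the adult mean of Rnase4 was -0.07 and its limma adjusted p 0.790, while 1764 features passed in place of 0.

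Adult and fetal values are given side by side, without a test, since the fetal values led to the choice and since age, pool and set of arrays cannot be told apart. On the Cy5 arrays, adults ran from -0.48 to 1.07 and embryos from 0.81 to 1.42. The ranges overlapped through the array of adult animal 3, where probe 60 read 2.75. The difference of the means, adult minus fetal, was -1.14.

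No difference between the sexes of the embryos was found, in a gene whose choice favoured a small spread between embryos. Female embryos 4, 5 and 6 averaged 0.96 ± 0.18 and male embryos 1, 2 and 3 averaged 1.20 ± 0.22 (SD, n = 3 each), and the groups overlapped. The difference, female minus male, was -0.24, with an interval of -0.66 to 0.18 and a limma adjusted p of 0.998, and 0.0116% of 17212 features passed. By probe 60 females averaged 0.96 ± 0.05 and males 1.27 ± 0.16, a difference of -0.31 with an interval of -0.67 to 0.05. By probe 351 the difference was -0.17, with an interval of -0.78 to 0.43. Sex largely coincides with the label of the pool. Embryo 3, a male set against the pool labelled female, read 1.18, between the 1.42 and 0.99 of the males set against the pool labelled male.

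The fetal rows needed another naming than the deposited one before these values could be read. The value of a probe stood 11 rows further down, so that probe 60 was read from row 71 and probe 351 from row 362. Over 4895 pairs of probes of the same gene, Rnase4 and Afp left out, the Spearman correlation of fetal means was 0.0852 at 11 rows and at most 0.0239 at the other 22 offsets. The correlation of the fetal mean with the adult dye difference was 0.375 at 11 rows and at most 0.164 elsewhere. The values of Rnase4 itself bear nothing on this, since the gene was chosen on them as read at 11 rows. With the names as deposited, the gene read 0.54, with probe 60 at 0.29 ± 0.21 and probe 351 at 0.79 ± 0.90 (n = 6 each), and probe 351 ran from -0.29 in embryo 1 to 2.11 in embryo 6.

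Beside Rnase4, 86 genes were listed, as ribonucleases or related genes or, for 2 of them, as ribonuclease inhibitor and angiogenin receptor. Of the 86, 38 had a probe, and 37 of these had enough fetal values. The fetal means of the 37 lay between -0.56 and 0.47, below that of Rnase4. By limma 0 of 37 passed in embryos and 0 of 38 in adults, beside 0.151% and 0% of all features, so these counts are those of the background.

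Of 26 other genes of the secreted family only Rnase1, the pancreatic-type ribonuclease and a chromosomal neighbour of Rnase4, had a probe. In embryos 1 to 6 it read -0.90, -0.36, -0.71, -0.65, -0.56 and -0.17, below 0 in 6 of 6. Its mean was -0.56 ± 0.26 (n = 6, limma adjusted p 0.0780), so it did not pass. The adult dye difference of Rnase1, divided by 2, was also -0.56 and did not pass (limma adjusted p 0.415). All embryos had the mutant in Cy5, and the part of the dye in the fetal value of Rnase1 was not tested. In adult animals Rnase1 averaged 0.11 ± 0.88 (n = 6, limma adjusted p 0.919). The inhibitor Rnh1 read 0.20 ± 0.28 in embryos (n = 6, limma adjusted p 0.339) and -0.05 ± 0.54 in adults. Its adult dye difference, divided by 2, was 0.61 and passed (limma adjusted p 0.0389). That of Rnase4 averaged -0.01 and did not pass, but it ran from -0.52 to 0.70 between animals.

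Of the 6 measured genes listed with the lysosomal and antiviral ribonucleases, not all of which need be ribonucleases, 3 lay above 0 and 3 below in embryos. Their median was -0.01 beside 0.0046 over all features. They ran from Pld3, a lysosomal exonuclease gene, at -0.41 to Smpdl3a at 0.35, and Rnaset2b, which encodes a lysosomal ribonuclease, read 0.26. Of the nuclear and RNA-processing enzymes 29 could be tested in embryos, 17 above 0 and 12 below, with a median of 0.03. Angel2 was lowest at -0.41 and Exosc8, which encodes a subunit of the RNA exosome, was highest at 0.47.

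**Figure D4:**
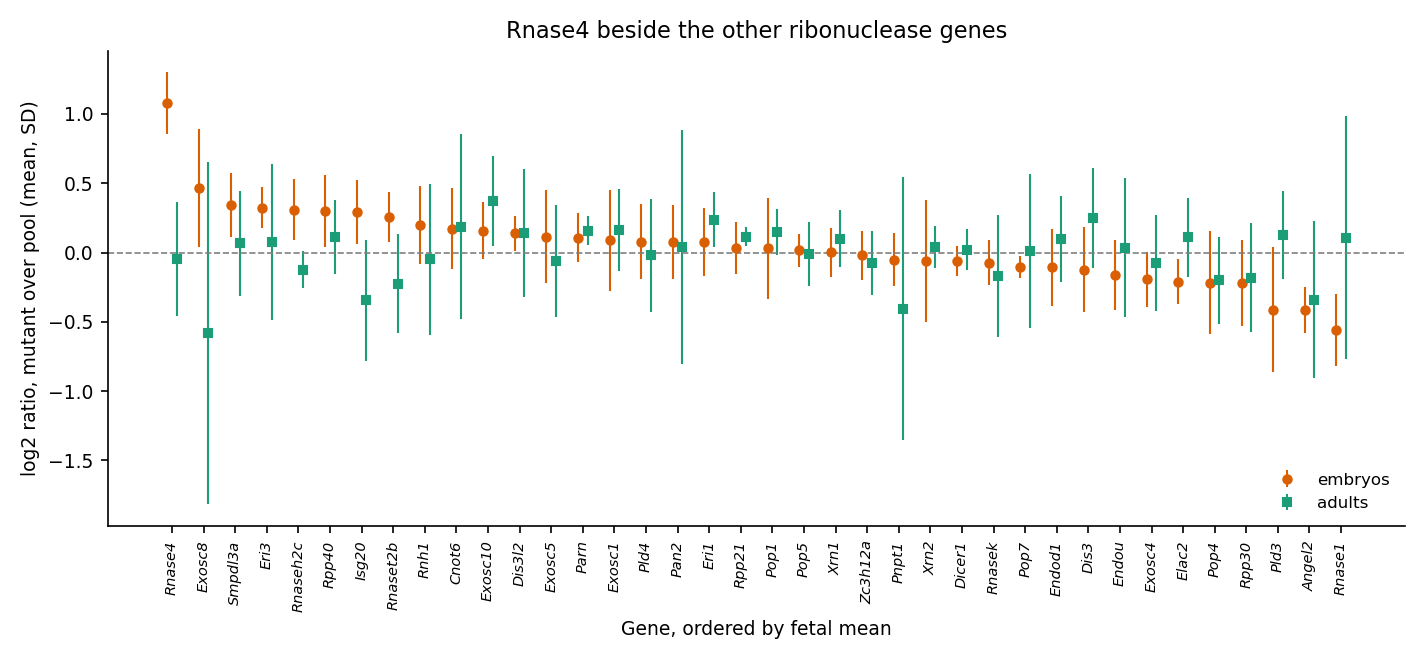
Mean log2 ratio with SD (y axis) of Rnase4 and of the listed ribonuclease and inhibitor genes with a fetal value. Genes stand in order of the fetal mean (x axis), circles are embryos and squares adult animals. Rnase4 stands at 1.08 in embryos and the others between -0.56 and 0.47, while in adults Rnase4, at -0.05, lies among them.

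The chromosomal neighbours were read in the same way. The 5 measured genes on each side of Rnase4 in RefSeq order on chromosome 14 were Armh4, Parp2, Osgep, Apex1 and Pnp on the one side and Rnase1, Ndrg2, Arhgef40, Zfp219 and Hnrnpc on the other. In embryos 4 lay above 0 and 6 below, with a median of -0.07. By limma 0 of 10 passed in either age, which at a background of 0.151% in embryos and 0% in adults sets the neighbours apart from no other features. Pnp, the purine nucleoside phosphorylase gene and the nearest measured neighbour on its side, was the highest at 0.29 ± 0.11 (6 of 6 above 0, limma adjusted p 0.0957). Rnase1, the next measured gene on the far side, was the lowest.

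The genes whose pattern was most like that of Rnase4 were found by the root mean square difference of log2 ratios over the 12 animals, among 8290 named genes with a value in all. Since the fetal rise takes up much of the pattern, this favours genes that were high in the embryos. Afm was nearest at 0.338, beside a median of 0.880. Its values in embryos 1 to 6 were 0.93, 0.63, 0.84, 0.76, 0.71 and 1.09, below the value of Rnase4 in 6 of 6.

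Ddx3x followed at 0.419, but its adult dye difference, divided by 2, was 0.75 (limma adjusted p 0.0167), beside a fetal mean of 0.72. Ctsl, which encodes the lysosomal protease cathepsin L, came next at 0.440, with 0.64 ± 0.21 in embryos and -0.07 ± 0.28 in adults. Ikzf1, a transcription factor gene of blood cells, stood at 0.470 with 0.65 ± 0.48 in embryos. Rps27, a ribosomal protein gene, stood at 0.471 with 0.56 ± 0.33. The relative Rnase1 stood at 1.33 and the inhibitor Rnh1 at 0.814.

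Markers of cell types that fetal or adult liver could hold were read on the same ratios, which give a direction and no level. Of 11 tested hepatocyte markers 8 were above 0 in embryos and 0 passed, and the median over the markers was -0.13, 0.20, 0.18, 0.50, 0.12 and 0.30 in embryos 1 to 6. In adults 11 of 12 were below 0, and the animal medians ran from -0.79 to 0.31. Exocrine pancreas markers, a list that holds Rnase1, lay below 0 in 6 of 6 embryos, with medians from -0.81 to -0.17, 7 of 8 below 0 and 2 passing as lower, beside 0.0928% of all features passing as lower. In adults 6 of 8 of them were below 0, with a median over the markers of -0.07, and 0 passed. Erythroid markers lay below 0 in all embryos, with medians from -0.34 to -0.004, and 0 of 5 passed. Granulocyte and eosinophil markers had 9 of 11 below 0 in embryos (median -0.13), and cholangiocyte markers 4 of 5 (median -0.36). Macrophage markers had 4 of 6 below 0 there, intestinal 2 of 4, endothelial 2 of 6 and kidney tubule 1 of 5. In each of these lists 0 passed in embryos. The part of these cell types in the value of Rnase4 was not tested.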

How the data were processed

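The authors deposited 1 table of log2 ratios of the 2 channels, with 20794 rows. How the images were read, corrected for background and normalized is not given in the sources used here. That the logarithm is to base 2 was inferred from the size of the values. Per the labels' protocols, RNA was labelled indirectly with Cy3 and Cy5. The platform annotation gave 12771 probes a symbol and left 8023 without.

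Probes of a gene were averaged on each array, then the arrays of an animal, with no further centring. Fetal rows were renamed by 11 rows for probes up to 20000, and 794 rows stayed unnamed. Log ratios were tested against 0 and between sexes with limma 3.58.1 (lmFit and eBayes) in R 4.3.3, after a check on simulated data. Features needed values in 4 animals (2 per sex), and a Benjamini-Hochberg adjusted p under 0.05 passed. The gene and the lists were chosen with earlier results of these data known. By rule the text names Rnase4, Afp, the risers, features at the threshold and measured genes of the ribonuclease lists. The rule also covers 5 measured neighbours on each side and the 5 genes with the most similar values. Sc5d and Scd1 were named after their values were seen. Alternatives covered dye subsets, sign, centring, extreme values, probes, missing values, naming and single animals.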

Additional observations from a re-analysis of the deposited data

Results flagged for a closer look

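In 49 sets of 4 to 10 values, 4 had a highest or lowest value far from the rest, and chance alone marks about 1 in 20 sets. The gene mean of Rnase4 on the adult Cy5 arrays stood at 1.07 in animal 3, far above the other 5. Probe 60 stood at 2.75 on that same array, against -0.22 or less on the other 3 with a value, while probe 351 read -0.61 there. Probe 351 stood at 0.30 in animal 1 on these arrays, with the others between -0.61 and -0.32. Afp, averaged over both dyes, stood at 0.34 in an adult animal, and the other 5 were below 0.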

How the results depend on the processing

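For Rnase4 in adults, 9 of 15 alternatives kept the direction and 0 passed, with values from -0.20 to 0.16 and limma adjusted p from 0.659 to 0.985. The sign turned on the Cy3 arrays alone (0.0242), in animals with both orientations (0.0119) and by probe 60 alone (0.162), and leaving out an animal gave -0.166 to 0.0271. The dye difference turned when arrays were centred on their medians (0.0111) and ranged from -0.383 to 0.228 with an animal left out. Female minus male embryos turned with the fetal rows named as deposited (0.240), and the fetal mean was then 0.54. The fetal mean kept its place within 1 SD in the other 12 alternatives, and adult minus fetal in 13 of 16. Adult minus fetal, whose alternatives were chosen after seeing the data, was -0.60 with the rows named as deposited, -0.64 by probe 60 alone and -1.36 to -1.05 with an animal left out. The cause of these shifts was not tested.

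Features passing in adults numbered 1764 with the Cy3 arrays turned, 1106 on Cy5 arrays alone and 699 on Cy3 arrays alone. In embryos 83 passed without values beyond 10 in size, 88 by probe, 61 with values required in every animal and 2 to 5 with an embryo left out. With the adult dye profile subtracted 4506 passed, but the same profile was taken from every embryo, so its own error did not enter the test. For the dye difference 638 to 2407 passed with an animal left out. Between the sexes 0 passed without values beyond 10 or with values in every animal, and 0 to 4 with an embryo left out.

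No paired analysis was possible because adult replicate numbers count 11 arrays of 6 animals, so a number shared with an embryo joins no animals, and no test sets the ages against each other. With 6 animals a group and probe 60 missing on 3 adult arrays, small adult shifts lie within the interval.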
